A study of Mus musculus with 11 samples.

Results

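The RNA of 33 genes for lysosomal enzymes and their helper proteins was followed in macrophages of mouse mammary tumours. The genes are lysosomal hydrolases other than the cysteine and aspartic cathepsins, taken by symbol from a list, and all 33 were found among the 17475 genes of the deposited table. They are 12 glycosidases (counting the amidase Aga), 6 genes for sulfatases and the acetyltransferase Hgsnat, 11 lipid hydrolases and activators, and 4 peptidases and phosphatases. All 6 mice were female, were backcrossed to B6 and carried PyMT, the oncogene of a mouse virus, from which their tumours arose. At 7 weeks of age they were irradiated and given 3 M (M for mega) wild-type bone marrow cells. A low protein diet began 2 weeks later and lasted 6 weeks, in every mouse, so diet could not be compared here. The control mice (1, 3 and 5) are the control-PyMT mice of the labels. The MYC mice (2, 4 and 6) also carried S100a8-cre and Rosa26-LSL-MYC, a transgene that Cre switches on, here under the promoter of S100a8, a gene of neutrophils and their precursors. The marrow given was wild type in both genotypes, so cells that descend from it carry neither allele. The gate of the tumour-associated macrophages (TAMs), those of the parenchyma, took cells positive for F4/80 and Vcam. The gate of the mammary tissue macrophages (MTMs), those of the stroma, took cells positive for F4/80 and FOLR2 but without Vcam. Control mice gave 3 TAM and 3 MTM libraries, and MYC mice gave 3 TAM and 2 MTM libraries (the latter from mice 2 and 4), each a separate sort from 1 mouse. MTMs of mouse 6 were not analysed here.

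Lysosomal hydrolases are made in the endoplasmic reticulum, tagged with mannose phosphate in the Golgi and carried by receptors to the lysosome, where an acid pH lets them work. They act in series: sulfatases and exoglycosidases take sugar chains apart from the end, and lipid hydrolases with small activator proteins take apart the glycolipids, cholesteryl esters and phospholipids that remain. Macrophages depend on them because they engulf dead cells and matrix, and loss of a single enzyme leads to a storage disease in which macrophages fill with its substrate. The MiT/TFE transcription factors, among them TFEB, bind a short element with the E-box CACGTG near the start of many of these genes.

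The libraries were of like depth, about 32.3 to 42.8 M reads in genes, an estimate that uses how far apart the lowest values lie. Values are on the deposited log2 scale. Their formula is not stated, but they behave as the log2 of x plus 1, with x scaled for depth and gene length, so that levels of different genes can be compared. Differences are log2 differences ± SE from limma, and folds are 2 to their power. Of 10 macrophage marker symbols 9 were found (the tenth, Adgre1, is the newer symbol of Emr1), and all 9 had a group mean above 1 in each group. Of these, Aif1 was at 0.24 in control TAMs of mouse 5, against 8.79 and 8.68 in those of mice 1 and 3. MYC TAMs stood apart from control TAMs in several of them, with less Csf1r (-2.57 ± 0.20) and Emr1 (-1.81 ± 0.26), the gene of F4/80, and more Cd68 (1.95 ± 0.15). Vcam1, the gene of the TAM gate, was at 8.60, 7.64 and 8.57 in control TAMs but at 0.96, 1.61 and 2.82 in MYC TAMs. In MTMs, sorted without Vcam, it was at 5.31, 6.86 and 5.25 (control) and at 2.32 and 2.31 (MYC). Every control MTM library was thus above every MYC TAM library, and Vcam1 RNA did not set TAMs apart from MTMs in MYC mice. Folr2, the gene of the MTM gate, did so in both genotypes. It was at 0.96, 1.37 and 1.77 in control TAMs and at 7.77, 8.05 and 7.67 in control MTMs. In MYC mice it was at 1.07, 1.44 and 3.62 in TAMs and at 8.45 and 8.07 in MTMs. Myc was at 2.66, 3.18 and 3.11 in control TAMs and at 2.16, 1.92 and 1.78 in MYC TAMs. In MTMs it was at 2.53, 2.62 and 2.75 (control) and at 2.87 and 3.02 (MYC). Its level was lower in the TAMs labelled MYC. Whether reads of the transgene are counted there is not given in the sources used here, so Myc does not check the genotype, and group names below are those of the labels.

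Markers of other cells moved with genotype too, and their part in the results below was not tested. Some values with the epithelial level in the model are given below, but in TAMs that level went with genotype. Of 18 epithelial markers 16 were measured. Their summed level, on the scale before the logarithm, was 1563 to 3484 in control TAMs, 78 to 702 in MYC TAMs, 1124 to 2572 in control MTMs and 602 to 715 in MYC MTMs. Within MYC TAMs their mean log2 level was 4.18, 3.09 and 1.90 in mice 2, 4 and 6. In control TAMs it was 4.793, 5.645 and 4.727 in mice 1, 3 and 5, without overlap. A call lost or gained with that level in the model thus cannot tell genotype and epithelial level apart in TAMs. All 9 T and NK cell markers were measured, with sums of 60.8 to 137 in control TAMs against 2.5 to 7.3 in MYC TAMs, where Cd3e was at its floor in all 3 libraries. Neutrophil markers went the other way. Of 5 measured, 2 were called higher and 0 lower in MYC than in control TAMs (limma), where 3.89% of all genes were called higher and 12% lower. Their sums were 53.7 to 73.8 in control TAMs and 68.5 to 119.9 in MYC TAMs. Among them S100a8 was at 3.82, 3.44 and 2.52 in control TAMs and at 6.18, 4.52 and 5.07 in MYC TAMs. In such bulk samples, a change in the number of cells of a type and one in RNA per cell cannot be told apart. Genes at their lowest value in 2 or more libraries were counted as at the floor. In the MYC TAM library of mouse 4 only 581 such genes were at the floor, against 2072 to 3522 in the other libraries.

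Every member was expressed in every library. The least covered value, Arsb in MYC TAMs of mouse 4, rested on an estimated 166 reads, so counting error is small beside the spread between mice. Levels spanned a wide range. Hexa, the alpha subunit of the hexosaminidase that trims gangliosides, was at 10.79 ± 0.14 in control TAMs (SD, n = 3), 10.71 ± 0.15 in control MTMs (n = 3), 11.44 ± 0.20 in MYC TAMs (n = 3) and 10.92 ± 0.22 in MYC MTMs (n = 2). Psap, the precursor of the saposins, was above Hexa in every control TAM library (11.14 ± 0.40, n = 3) and below it in every other library. Hexa had the highest mean of the 33 in the other 3 groups. The lowest in control TAMs were Arsb, a sulfatase of dermatan sulfate (1.99 ± 0.29, n = 3), and Ppt2, a thioesterase (2.38 ± 0.30, n = 3). The median level over the 33 genes was 6.13 to 6.30 in control TAMs and 6.00 to 6.32 in MYC TAMs. For MTMs it was 5.75 to 6.03 (control) and 5.97 to 6.11 (MYC), so these ranges overlapped between the genotypes. The ranges of the mean level did not overlap, at 5.77 to 6.03 in control TAMs and 6.09 to 6.36 in MYC TAMs. For MTMs the mean was 5.82 to 5.95 (control) and 6.18 in each library (MYC), again without overlap. The mean over all genes was not compared by library, so this separation is not shown to be particular to the members.

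**Figure D1:**
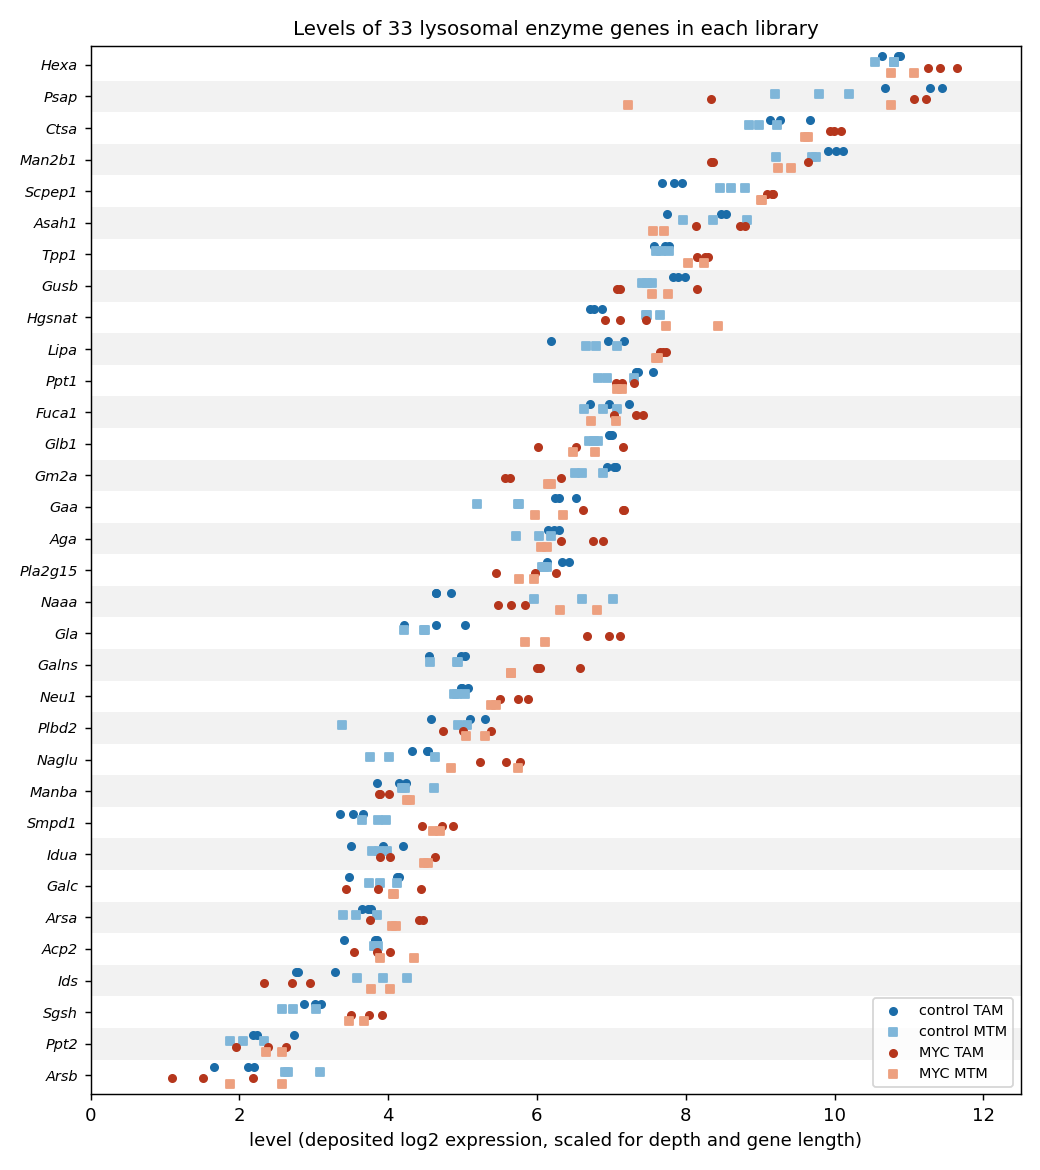
Levels of the 33 genes (deposited log2 scale) in each of the 11 libraries, 1 row per gene ordered by mean level, with circles for TAMs and squares for MTMs, blue for control and red for MYC. Hexa has the highest mean and Arsb the lowest, and the red points stand to the right of the blue for Gla, Galns and Smpd1.

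The first question was how these genes differ between TAMs of MYC and control tumours. In MYC TAMs 11 members were higher and 2 were lower (limma, adjusted p below 0.05 over all 17475 genes, two-sided). Among all genes tested 3.89% were called higher and 12% lower in that comparison. The enzymes that rose act on globosides (Gla), keratan sulfate (Galns), heparan sulfate (Naglu, Sgsh), sialic acid (Neu1), sphingomyelin (Smpd1), cholesteryl esters (Lipa) and fatty acid amides (Naaa), with the peptidases Scpep1, Ctsa and Tpp1. Those that fell were the ganglioside activator Gm2a and the mannosidase Man2b1. The median difference over the 33 was 0.30, with 21 positive, against -0.02 over all genes and -0.21 over genes with a mean level of 1 or more. Of the 13 calls, those of Gla, Smpd1, Scpep1 and Gm2a were kept under each of the 21 alternatives that bear on this comparison. The number called higher was 6 without MYC TAM mouse 2, 7 without MYC TAM mouse 4, 6 without control TAM mouse 3 and 7 without control TAM mouse 5. With the level of the epithelial markers as a covariate it was 3, with 4 lower. With the TAM libraries alone in the model it was 7, and Man2b1, Sgsh, Lipa, Tpp1 and Ctsa were not called. The number of all genes called moved with these settings too, as given in the last section. How these member counts moved between settings is therefore not shown to be particular to the members.

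**Figure D2:**
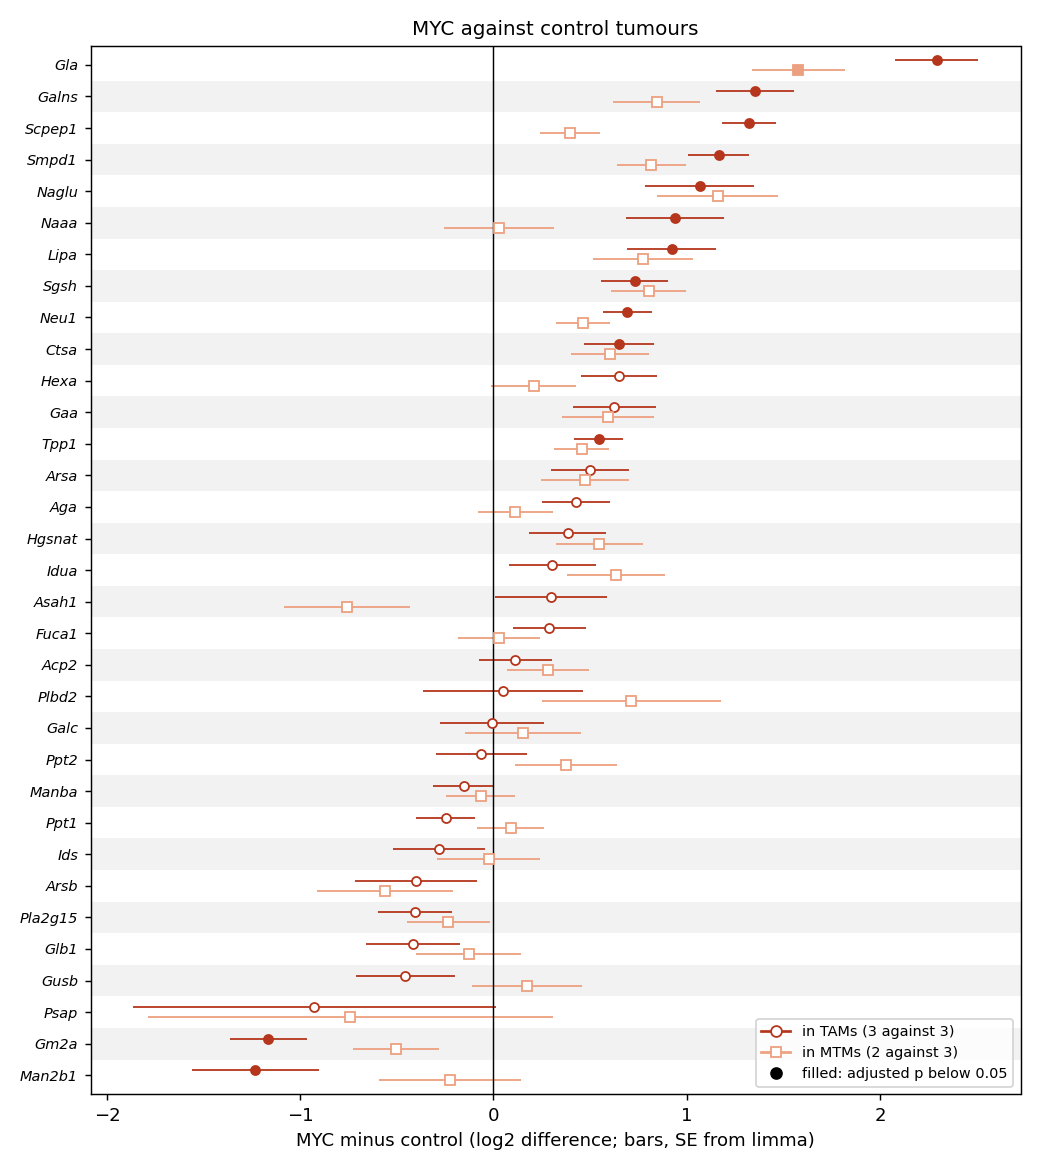
Difference between MYC and control (log2, with SE from limma) for each of the 33 genes in TAMs (circles, 3 against 3 libraries) and in MTMs (squares, 2 against 3), filled where the adjusted p is below 0.05. Gla lies farthest to the right in both cell types, and Gm2a and Man2b1 lie at the left end.

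Gla encodes alpha-galactosidase A, which removes the terminal galactose of globotriaosylceramide and is the enzyme missing in Fabry disease. It lies on chromosome X, 134588149 to 134601125, minus strand (GRCm38). Its level was 4.64, 4.21 and 5.03 in control TAMs and 6.68, 6.97 and 7.12 in MYC TAMs. The groups were far apart, by 2.29 ± 0.22 (4.90-fold, adjusted p = 0.000152), the largest difference of any of the 33 genes in any of the 5 comparisons. With the epithelial level as a covariate it was 1.82 (adjusted p = 0.0125). The promoter window of Gla is shown because it holds more of the searched elements than that of any other member. It is part of the RefSeq promoter on chrX:134601136-134601255, minus strand (GRCm38.p6), at -250 to -131 bases from the start, with matches to CACGTG, its extended forms TCACGTGA and GTCACGTG, and TCATGTG in capitals.
Gla: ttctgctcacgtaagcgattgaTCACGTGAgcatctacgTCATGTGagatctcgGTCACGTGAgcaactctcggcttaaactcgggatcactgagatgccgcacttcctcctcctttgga

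Of the other glycosidases, Neu1 and Naglu rose and Man2b1 fell. Neu1, the lysosomal sialidase (chromosome 17, 34931253 to 34935953, plus strand), was at 4.98, 5.07 and 4.99 in control TAMs and 5.74, 5.51 and 5.87 in MYC TAMs. The control libraries lay within a narrow band and every MYC library was above it, by 0.69 ± 0.13 (1.62-fold, adjusted p = 0.00552). With the epithelial covariate the difference was 0.60, and its adjusted p of 0.109 did not pass. Naglu, which removes N-acetylglucosamine from heparan sulfate (chromosome 11, 101070012 to 101077672, plus strand), was at 4.52, 4.32 and 4.54 in control TAMs and 5.58, 5.77 and 5.24 in MYC TAMs. The groups did not overlap and differed by 1.07 ± 0.28 (2.09-fold, adjusted p = 0.0296). That call was lost without MYC TAM mouse 2 or 4 or any 1 of the 3 control TAM libraries (adjusted p = 0.0626 to 0.104), and with the covariate (1.15, adjusted p = 0.210).

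Man2b1, the alpha-mannosidase that trims N-glycans (chromosome 8, 85083270 to 85098282, plus strand), was at 10.11, 9.91 and 10.02 in control TAMs and 8.34, 8.37 and 9.64 in MYC TAMs. Mice 2 and 4 were far below the controls and mouse 6 was near them. The difference was -1.23 ± 0.33 (2.35-fold lower, adjusted p = 0.0314). It was -1.66 without MYC TAM mouse 6 (adjusted p = 0.000898). Without any other single TAM library, or without either MYC MTM library, the call was lost (adjusted p = 0.0524 to 0.116).

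The same split within MYC TAMs was seen in 2 other glycosidases that did not pass. Gusb, the beta-glucuronidase, was at 7.12, 7.08 and 8.15 in MYC TAMs of mice 2, 4 and 6, against 7.99, 7.82 and 7.90 in control TAMs. Glb1, the beta-galactosidase that starts on gangliosides and keratan sulfate, was at 6.02, 6.53 and 7.16, against 6.97, 6.98 and 7.01. Mouse 6 was thus above the controls for both genes while mice 2 and 4 were below. Without MYC TAM mouse 6, Gusb (-0.81, adjusted p = 0.00340) and Glb1 (-0.71, adjusted p = 0.0216) passed. That library also had the lowest epithelial marker level of all 11 and the highest Folr2 of the MYC TAMs (3.62 against 1.07 and 1.44); the part of Folr2 was not tested. With the epithelial level as a covariate, Glb1 passed (-1.18, adjusted p = 0.0298), Gusb did not (-1.17, adjusted p = 0.0559) and Man2b1 kept its call (-2.30, adjusted p = 0.00678).

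The remaining glycosidases did not pass between MYC and control TAMs. Hexa was at 10.86, 10.63 and 10.88 in control TAMs and 11.25, 11.65 and 11.41 in MYC TAMs, groups that did not overlap, with a difference of 0.65 ± 0.20 (adjusted p = 0.0522). Exons of Hexa share 12.8% of their length with Tmem202 on the other strand, and whether counting used strand is not stated. Gaa, the acid glucosidase of glycogen, differed by 0.63 ± 0.21 (adjusted p = 0.0828). Aga, which cuts the bond between sugar chain and asparagine, differed by 0.43 ± 0.17 (adjusted p = 0.142). The differences of Idua, the iduronidase (0.30 ± 0.23), Fuca1, the fucosidase (0.29 ± 0.19), and Manba, the beta-mannosidase (-0.15 ± 0.16), were smaller.

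Among the sulfatases, Galns and Sgsh rose. Galns, which takes sulfate from keratan sulfate (chromosome 8, 122578242 to 122611463, minus strand), was at 5.03, 4.55 and 4.98 in control TAMs and 5.99, 6.04 and 6.58 in MYC TAMs. All MYC libraries were above all controls, by 1.35 ± 0.20 (2.55-fold, adjusted p = 0.00201). With the epithelial covariate the difference was 0.70 and did not pass (adjusted p = 0.0716). Sgsh, the sulfamidase that acts beside Naglu on heparan sulfate (chromosome 11, 119343425 to 119355536, minus strand), was at 3.09, 2.86 and 3.01 in control TAMs and 3.92, 3.51 and 3.74 in MYC TAMs. The groups did not overlap, with a difference of 0.73 ± 0.17 (1.66-fold, adjusted p = 0.0191). The Sgsh call was lost without MYC TAM mouse 2 (adjusted p = 0.0636) or control TAM mouse 3 (0.0739) or 5 (0.0542), and with the covariate (0.72, adjusted p = 0.190). Card14 on the other strand shares 21.6% of the exon length of Sgsh.

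The other genes of this class did not pass in TAMs. Arsa, the sulfatase of myelin sulfatide, was at 4.47, 4.41 and 3.75 in MYC TAMs against 3.72, 3.77 and 3.65 in control TAMs (0.50 ± 0.20, adjusted p = 0.141). Hgsnat, a membrane enzyme that acetylates heparan sulfate inside the lysosome, differed by 0.38 ± 0.20 (adjusted p = 0.258). Ids, the iduronate sulfatase (-0.28 ± 0.24), and Arsb (-0.40 ± 0.31) had negative differences with adjusted p of 0.461 and 0.434.

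Among the lipid hydrolases the largest rise was that of Smpd1, acid sphingomyelinase (chromosome 7, 105554360 to 105558389, plus strand). It was at 3.67, 3.53 and 3.35 in control TAMs and 4.87, 4.72 and 4.45 in MYC TAMs, without overlap. The difference was 1.17 ± 0.16 (2.24-fold, adjusted p = 0.00122), and 1.40 with the epithelial covariate (adjusted p = 0.0144). Lipa, the acid lipase that frees cholesterol and fatty acids from engulfed lipoprotein and cell debris (chromosome 19, 34492318 to 34527474, minus strand), was at 6.95, 6.19 and 7.17 in control TAMs and 7.65, 7.73 and 7.69 in MYC TAMs. The MYC libraries were nearly equal and above all controls, by 0.92 ± 0.23 (1.90-fold, adjusted p = 0.0240). That call was lost without MYC TAM mouse 2 (adjusted p = 0.0569) or 4 (0.0727), and with the covariate (0.59, adjusted p = 0.437).

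Naaa, the amidase that breaks down palmitoylethanolamide (chromosome 5, 92257659 to 92278170, minus strand), was at 4.65, 4.65 and 4.85 in control TAMs and 5.84, 5.65 and 5.47 in MYC TAMs. The groups were separate, with a difference of 0.94 ± 0.25 (1.92-fold, adjusted p = 0.0335). The Naaa call was lost without MYC TAM mouse 2 or 4, control MTM mouse 5 or any 1 control TAM library (adjusted p = 0.0527 to 0.106), and with the covariate (0.91, adjusted p = 0.278). Gm2a, the activator protein that lifts gangliosides out of the membrane for hexosaminidase (chromosome 11, 55098115 to 55113029, plus strand), went the other way. It was at 7.03, 6.94 and 7.06 in control TAMs and 5.58, 5.64 and 6.32 in MYC TAMs. Every MYC library was below every control, by a difference of -1.16 ± 0.20 (2.24-fold lower, adjusted p = 0.00416), or -1.77 with the covariate (adjusted p = 0.00400).

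Psap is required by many of these enzymes, since the saposins cut from it present their lipid substrates. It was at 11.45, 10.68 and 11.28 in control TAMs and 11.06, 8.34 and 11.23 in MYC TAMs. The MTM levels were 9.79, 10.20 and 9.21 (control) and 10.76 and 7.22 (MYC). Mouse 4 was by far the lowest within each cell type, and the other 9 libraries lay between 9.21 and 11.45. The difference between MYC and control TAMs of -0.93 ± 0.94 (adjusted p = 0.533) became 0.01 without MYC TAM mouse 4. In MTMs the difference of -0.74 ± 1.05 (adjusted p = 0.994) became 1.03 without MYC MTM mouse 4, so the sign of each rests on 1 mouse.

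The other 6 lipid genes did not pass between MYC and control TAMs. Asah1, acid ceramidase, differed by 0.30 ± 0.29 and Galc, the galactosylceramidase, by -0.01 ± 0.27. Ppt1, which removes palmitate from proteins, differed by -0.25 ± 0.15 and its relative Ppt2 by -0.06 ± 0.24, where 36.6% of the exon length is shared with Gm20460 on the same strand. Pla2g15, the lysosomal phospholipase, was at 5.45, 5.98 and 6.25 in MYC TAMs against 6.43, 6.13 and 6.33 in control TAMs (-0.41 ± 0.19, adjusted p = 0.210), and passed with the epithelial covariate (-1.02, adjusted p = 0.0176). Plbd2, a phospholipase B-like protein, differed by 0.05 ± 0.41.

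All 3 peptidases rose in MYC TAMs. Scpep1, a serine carboxypeptidase (chromosome 11, 88924020 to 88955465, minus strand), was at 7.84, 7.68 and 7.94 in control TAMs and 9.16, 9.17 and 9.10 in MYC TAMs. The spread within each group was small beside the difference of 1.32 ± 0.14 (2.50-fold, adjusted p = 0.000303), which was 1.23 with the epithelial covariate (adjusted p = 0.0130). Ctsa, the protective protein that holds Neu1 and Glb1 in a complex (chromosome 2, 164832873 to 164841032, plus strand), was at 9.67, 9.13 and 9.27 in control TAMs and 9.99, 10.09 and 9.94 in MYC TAMs. The groups did not overlap, by 0.65 ± 0.18 (1.57-fold, adjusted p = 0.0377). Without MYC TAM mouse 2 or 4, control TAM mouse 3 or 5 or either MYC MTM library, the Ctsa call was lost (adjusted p = 0.0655 to 0.147), as with the covariate (0.58, adjusted p = 0.290). Exons of Pltp on the other strand share 10.5% of the exon length of Ctsa.

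Tpp1, the tripeptidyl peptidase (chromosome 7, 105744811 to 105752235, minus strand), was at 7.73, 7.58 and 7.78 in control TAMs and 8.30, 8.26 and 8.15 in MYC TAMs. The MYC libraries were all above the controls, by 0.54 ± 0.13 (1.46-fold, adjusted p = 0.0185). Leaving out mouse 3 of the control TAMs ended the Tpp1 call (adjusted p = 0.0778), as did the covariate (0.57, adjusted p = 0.124). Acp2, the lysosomal acid phosphatase, did not pass (0.11 ± 0.19, adjusted p = 0.712). Of the complex of sialidase, protective protein and beta-galactosidase, Neu1 and Ctsa thus rose, and Glb1 differed by -0.42 ± 0.24 (adjusted p = 0.316).

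**Figure D3:**
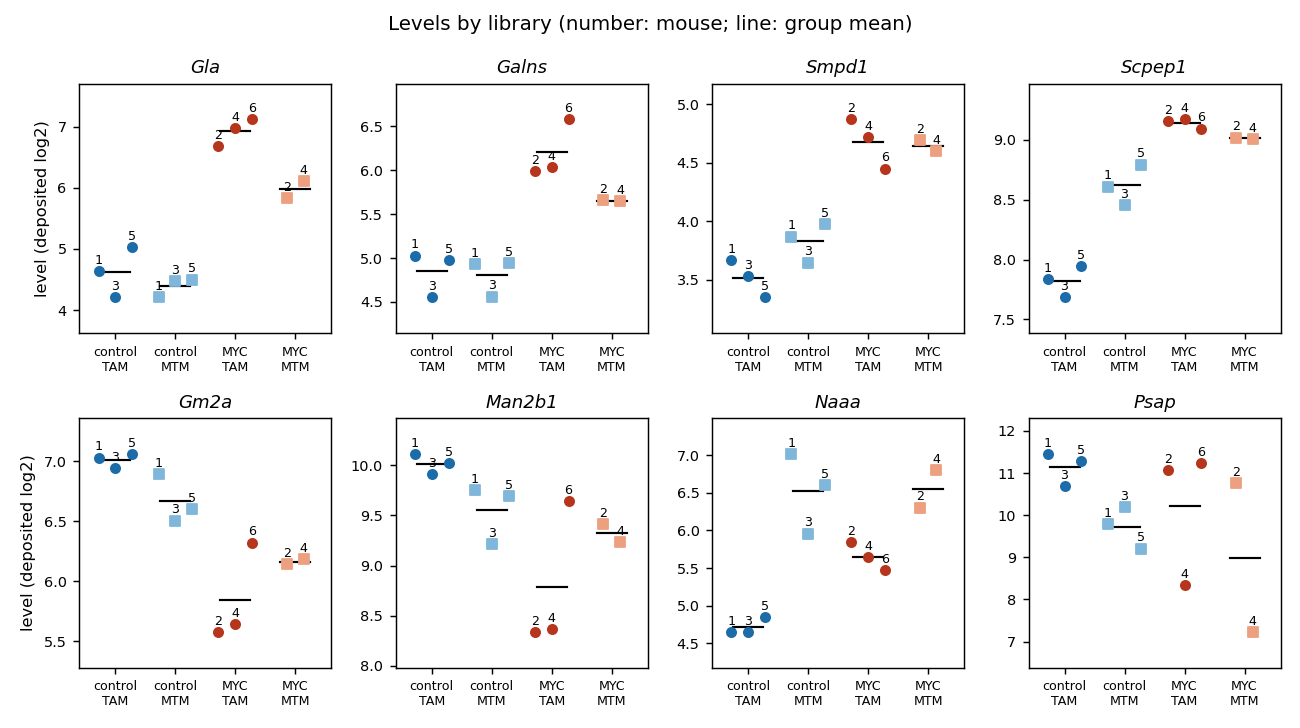
Levels (deposited log2 scale) of 8 of the genes in each library, with the mouse number beside each point and a line at the group mean; the vertical axes differ and do not start at 0. MYC TAMs lie above control TAMs for Gla, Galns, Smpd1, Scpep1 and Naaa, mouse 6 stands apart from mice 2 and 4 for Man2b1 and Gm2a, and mouse 4 is lowest for Psap.

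The same question in MTMs had 2 MYC libraries against 3. Gla was the only member to pass by limma (1 higher, 0 lower; 13 and 2 at an unadjusted p below 0.05), where 0.338% of all genes were called higher and 0.28% lower. It was at 4.21, 4.48 and 4.50 in control MTMs and 5.84 and 6.11 in MYC MTMs. The groups were well apart, by 1.58 ± 0.24 (2.98-fold, adjusted p = 0.0247). The call was lost without either MYC MTM library (adjusted p = 0.147 and 0.212), any 1 control MTM library (0.0686 to 0.0774), MYC TAM mouse 4 (0.0542) or control TAM mouse 1 (0.0539). With the libraries of MTMs alone in the model, Gla did not pass (adjusted p = 0.106).

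Other members had positive differences in MTMs that did not pass. Smpd1 was at 3.87, 3.65 and 3.98 in control MTMs and 4.70 and 4.60 in MYC MTMs, without overlap (0.82 ± 0.18, adjusted p = 0.0934). Naglu was at 4.63, 4.01 and 3.76 against 4.84 and 5.75 (1.16 ± 0.31, adjusted p = 0.180). The difference was 0.80 ± 0.19 for Sgsh (adjusted p = 0.125) and 0.84 ± 0.23 for Galns (adjusted p = 0.175). All of the 11 members called higher in MYC TAMs had a positive difference in MTMs, and of the 680 genes called higher in TAMs 90.3% did; the libraries differ but come from the same mice. Over the 33 genes the median difference in MTMs was 0.28, with 24 positive, against -0.02 over all genes. The lowest values were those of Asah1 (-0.76 ± 0.33, adjusted p = 0.472), Psap and Arsb (-0.56 ± 0.35, adjusted p = 0.692).

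TAMs and MTMs were compared within each genotype to ask how the enzymes differ between parenchyma and stroma. In control mice 0 members were higher in TAMs by limma and 2 were lower, Naaa and Scpep1 (2 and 5 at an unadjusted p below 0.05), where 0.744% of all genes were called higher and 1.63% lower. Naaa was at 4.65, 4.65 and 4.85 in control TAMs and 7.02, 5.96 and 6.60 in control MTMs. TAMs were well below MTMs, by -1.81 ± 0.25 (3.51-fold lower, adjusted p = 0.00513), and the call was kept without each library in turn but lost with the control libraries alone in the model (adjusted p = 0.0767). Scpep1 was at 7.84, 7.68 and 7.94 in control TAMs and 8.61, 8.45 and 8.79 in control MTMs. The difference was -0.80 ± 0.14 (1.74-fold lower, adjusted p = 0.0167), without overlap. The Scpep1 call was lost without control MTM mouse 1 (adjusted p = 0.0664) or 5 (0.0825) or control TAM mouse 1 (0.0705) or 3 (0.0753), and with the control libraries alone (0.0803). TAMs and MTMs of a number come from the same mouse, and with the mouse as a fixed block both calls remained.

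In MYC mice 1 member was lower in TAMs than in MTMs by limma and 0 were higher (3 and 6 at an unadjusted p below 0.05), where 0.664% of all genes were called higher and 3.82% lower. Ids, which removes sulfate from heparan and dermatan sulfate (chromosome X, 70343069 to 70365084, minus strand), was at 2.70, 2.33 and 2.95 in TAMs and 3.77 and 4.03 in MTMs of these mice. The groups did not overlap, and the difference was -1.23 ± 0.27 (2.35-fold lower, adjusted p = 0.0325). In control mice Ids was at 2.76, 2.78 and 3.28 in TAMs and 4.25, 3.58 and 3.93 in MTMs, again without overlap, and did not pass (-0.98 ± 0.24, adjusted p = 0.0775). The call in MYC mice was lost with the mouse as a fixed block (-1.38, adjusted p = 0.0708). It was also lost with the libraries of MYC mice alone in the model (adjusted p = 0.140), and without MYC MTM mouse 2 (adjusted p = 0.155) or 4 (0.243), MYC TAM mouse 2 (0.0715) or 4 (0.0809), or control MTM mouse 5 (0.0593).

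Naaa and Scpep1, the genes called in controls, did not pass in MYC mice. Naaa was at 5.84, 5.65 and 5.47 in TAMs and 6.30 and 6.80 in MTMs there (-0.90 ± 0.28, adjusted p = 0.127). Scpep1 was at 9.16, 9.17 and 9.10 against 9.02 and 9.01 (0.13 ± 0.16, adjusted p = 0.707). A few members were placed alike in both genotypes without passing in either. Hgsnat was lower in TAMs by -0.75 ± 0.20 in controls (adjusted p = 0.105) and -0.92 ± 0.22 in MYC mice (adjusted p = 0.0528). Arsb differed by -0.79 ± 0.31 and -0.63 ± 0.35, while Gaa had positive differences of 0.79 ± 0.21 (adjusted p = 0.111) and 0.82 ± 0.24 (adjusted p = 0.0987). Gla differed by 0.24 ± 0.22 in controls and 0.95 ± 0.24 in MYC mice (adjusted p = 0.0605). Psap had the highest values, 1.41 ± 0.94 and 1.22 ± 1.05, with errors too wide to pass. The median over the members was 0.11 in controls and 0.06 in MYC mice, with 22 and 19 of 33 positive.

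**Figure D4:**
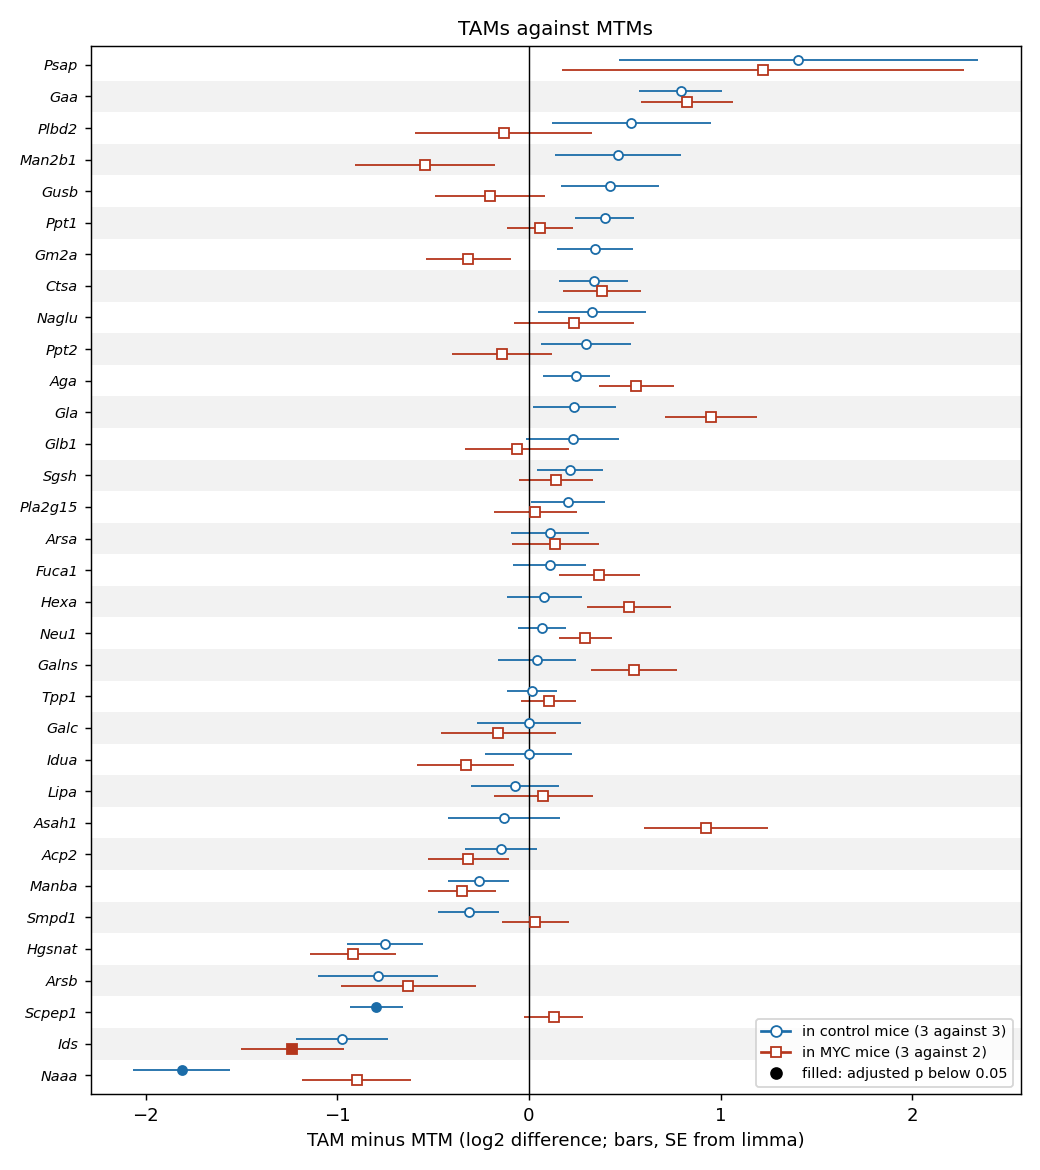
Difference between TAMs and MTMs (log2, with SE from limma) for each of the 33 genes in control mice (circles, 3 against 3 libraries) and MYC mice (squares, 3 against 2), filled where the adjusted p is below 0.05. Naaa and Scpep1 are filled in controls and Ids in MYC mice, all to the left of 0, and the bars of Psap are the widest.

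Whether the difference between TAMs and MTMs itself differed between the genotypes was tested as an interaction. No member passed by limma (0 higher and 0 lower of 33, and 3 and 0 at an unadjusted p below 0.05), where 0.24% of all genes were called higher and 0.996% lower. The member nearest to passing was Scpep1, whose difference was higher by 0.93 ± 0.21 in MYC mice (adjusted p = 0.0790). Asah1 (1.05 ± 0.44, adjusted p = 0.405), Naaa (0.91 ± 0.38, adjusted p = 0.410) and Man2b1 (-1.01 ± 0.49, adjusted p = 0.524) had values as large with wider errors. The call of Gla in both cell types and of the other 12 members in TAMs alone is therefore no test of a difference between the cell types. Of all 17475 genes 216 passed the interaction, and 31 did with the mouse as a fixed block.

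Other genes of the lysosome moved in both directions between MYC and control TAMs. Of 22 other lysosomal hydrolases 5 were higher and 5 lower, where 3.89% of all genes were called higher and 12% lower. The extremes were Smpdl3a, a nucleotide-cleaving relative of sphingomyelinase (2.60 ± 0.30, 6.05-fold, adjusted p = 0.000501), Arsg, a sulfatase of heparan sulfate (2.06 ± 0.21, 4.17-fold, adjusted p = 0.000214), and Plbd1, a phospholipase B-like protein (-2.53 ± 0.29, 5.78-fold lower, adjusted p = 0.000470), and these 3 calls were kept under every alternative. Hyal1, Dpp7 and Ggh also rose, and Smpdl3b, Acp5 and Rnaset2a also fell. Of these 6, Acp5 and Ggh kept the call without each library in turn. Hyal1 lost it without control TAM mouse 1 (adjusted p = 0.0503), and Dpp7, Smpdl3b and Rnaset2a without 8, 8 and 9 of the 11 libraries. With the epithelial covariate all 6 lost it (adjusted p = 0.0525 for Dpp7, 0.0624 for Acp5, 0.0849 for Ggh, 0.442 for Hyal1, 0.596 for Rnaset2a and 0.658 for Smpdl3b).

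Of 17 genes of enzyme delivery and activation 4 were higher and 1 was lower, beside the same 3.89% and 12% of all genes. Gnptg, a subunit of the enzyme that makes the mannose phosphate tag, rose by 0.75 ± 0.15 (adjusted p = 0.00980), and did not pass with the TAM libraries alone in the model (adjusted p = 0.0508). Igf2r, the large receptor of that tag, was at 0.97, 2.19 and 1.49 in control TAMs and 2.93, 4.11 and 4.88 in MYC TAMs (2.42 ± 0.52, adjusted p = 0.0121), a call lost without MYC TAM mouse 4 (adjusted p = 0.0552) or both libraries of that mouse (0.0835), and with the TAM libraries alone (0.0522). With the epithelial covariate the difference of Igf2r was 1.19 (adjusted p = 0.438). The cholesterol exporters Npc1 and Npc2 rose and Scarb2, which carries glucocerebrosidase, fell, and each of these 3 lost its call without 4 or more single libraries (adjusted p = 0.0516 to 0.140) and with the epithelial covariate (0.502 for Npc1, 0.0985 for Npc2 and 0.0516 for Scarb2). Of the 4 MiT/TFE factors 0 passed by limma in any of the 5 comparisons, and at an unadjusted p below 0.05 1 did between TAMs and MTMs of each genotype. Tfeb, for example, was at 3.06, 3.33 and 3.14 in control TAMs and 3.12, 2.80 and 3.11 in MYC TAMs (-0.16 ± 0.15, adjusted p = 0.494). Between MYC and control MTMs Arsg alone of these 43 genes passed (1.81 ± 0.23, 3.51-fold, adjusted p = 0.0108), where 0.338% of all genes were called higher and 0.28% lower. The Arsg call there was lost without MYC MTM mouse 2 (adjusted p = 0.144) or 4 (0.0615), without control MTM mouse 5 (0.0511), without both libraries of mouse 4 (0.0605) and with the MTM libraries alone in the model (0.137).

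Between TAMs and MTMs 4 of these 43 genes passed in controls, 2 higher and 2 lower, where 0.744% of all genes were called higher and 1.63% lower. Acp5, the tartrate-resistant phosphatase, was at 8.98, 8.33 and 8.56 in TAMs and 6.84, 6.91 and 6.74 in MTMs (1.79 ± 0.17, 3.46-fold, adjusted p = 0.000652) and passed under every alternative. Scarb2 was higher too, and Smpdl3a and Arsg were lower, and all 3 lost the call with the mouse as a fixed block (adjusted p = 0.0619 to 0.135). In MYC mice Smpdl3b was the 1 gene to pass (-1.52 ± 0.36, adjusted p = 0.0481), where 0.664% of all genes were called higher and 3.82% lower. That call was lost under 13 of 22 alternatives, among them 8 of the 11 that leave out 1 library (adjusted p = 0.0532 to 0.334), quantile normalisation (0.154) and the epithelial covariate (0.166).

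Promoter sequences from RefSeq (GRCm38.p6), 250 bases before to 50 after a gene's start, were found for 28 of the 33 members and searched on both strands. CACGTG was in the windows of 6 members (21.4% of 28), and in 9.38% of 12165 such windows of genes in the table. GTCACGTG, which contains it, was in 5 (17.9%, against 3.63%). TCACGTGA was in Gla alone (3.57%, against 1.66%), and TCATGTG, of the M-box type, in Gla, Ppt1 and Tpp1 (10.7%, against 2.44%). In Gla, printed above, the palindrome TCACGTGA begins at -228 and again at -195 bases from the start, with TCATGTG between them at -211. The other 5 windows with CACGTG are shown as 30 bases around the match, in the direction of the gene, with the match and its extension in capitals. They lie on chr15:89477423-89477452 (Arsa, minus strand), chr11:119267811-119267840 (Gaa, plus), chr9:114401018-114401047 (Glb1, plus), chr11:101070009-101070038 (Naglu, plus) and chr11:119355522-119355551 (Sgsh, minus).
Arsa: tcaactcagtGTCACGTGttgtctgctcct
Gaa: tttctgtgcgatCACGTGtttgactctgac
Glb1: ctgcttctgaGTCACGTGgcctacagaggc
Naglu: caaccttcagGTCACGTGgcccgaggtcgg
Sgsh: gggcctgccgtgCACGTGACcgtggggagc

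Of the 6 members with CACGTG, Gla, Naglu and Sgsh were called higher in MYC TAMs, Arsa and Gaa had positive differences that did not pass, and Glb1 had a negative one. Of the 22 members with a window and without CACGTG 7 were called higher and 2 lower. The median difference was 0.68 in the former and 0.05 in the latter, a description of 28 windows with no test. A match is a string of letters in a window and shows no binding. Distances are from the RefSeq start alone. The GENCODE positions given above start farther upstream for Gla, Naglu and Sgsh, for example. By these, the CACGTG of Naglu lies inside the gene and that of Sgsh lies across its start.

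**Figure D5:**
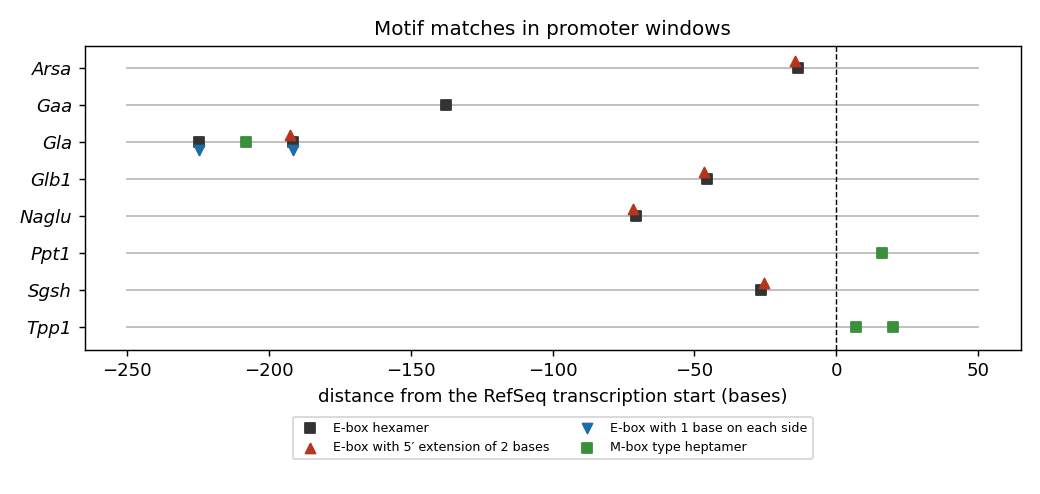
Positions of motif matches in the promoter windows of the 8 members that hold any, as distance in bases from the RefSeq start; symbols mark the E-box hexamer, its forms extended at the 5′ end or by 1 base on each side, and the M-box type heptamer. Gla holds matches to all 4, from -228 to -188 bases from the start.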

How the data were processed

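Messenger RNA of 11 sorted libraries was sequenced from 500 ng of RNA (integrity numbers 3.3 to 9.6, 8 PCR cycles, a stranded kit), per the labels' protocols. The submitters' processing notes name HISAT2, DESeq2 (without its role) and the build mm10, GRCm38.p5. The authors deposited log2 expression for 17475 genes, with no counts. The formula was inferred: 89.3% of 10956 low values (up to 5 reads) lay within 0.1 of a whole read. Read numbers are estimates that use GENCODE exon lengths (found for 93.4% of genes), and cover counting error only. Whether counting used strand is not stated.

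All 17475 genes and 11 libraries were fitted with limma 3.58.1 in R 4.3.3, with a mean per group, variances that follow level and no block for the mouse, tested on simulated data, and adjusted by Benjamini-Hochberg. No filter was applied. P-values measure the pooled spread between libraries within the groups, where each library of a group is from a different mouse. For TAMs against MTMs and for the interaction they leave out the pairing by mouse. The 5 comparisons share libraries and 1 variance estimate. TAMs and MTMs are paired by mouse, per the labels. Deviations from group means of the same mouse correlated across genes at 0.176, 0.211 and 0.0779 in control and 0.0983 and 0.0379 in MYC mice. Replicates were no copies of each other (at most 0.203% of values identical). There were 22 alternatives; leaving out both libraries of mouse 4 was added after the data were seen.

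The named genes are all 33 members, with every library's value for those that passed, and genes of the lysosomal and marker lists. The values of 1 gene of these lists are not reported here. Members and lists were chosen with earlier results of these data known. Gene positions are from GENCODE M21 on GRCm38. Python 3.11.15, numpy 2.4.6, pandas 2.3.3 and matplotlib 3.10.9 were used for searches and figures.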

Additional observations from a re-analysis of the deposited data

How the results depend on the processing

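The 2 or 3 libraries of a group, not depth, limit these tests, and where a group was left with 1 library it was assumed to vary like the others. No called member changed direction under any of the 22 alternatives. For the counts below that moved, the cause was not tested beyond what each setting leaves out. Where a member count is given without a count of all genes, its move with the setting is not shown to be particular to the members.

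With the mouse as a fixed replicate block (the paired fit), 255 genes passed between TAMs and MTMs in controls (414 without it) and 476 in MYC mice (784 without it), where 0 members stayed lower, and 31 passed the interaction (216 without it). As a random replicate block, 325 passed the interaction with 1 member higher, and 1 member was higher and 2 lower between MYC TAMs and MTMs.

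Median centring moved the median of all genes between MYC and control TAMs from -0.02 to 0.28. It called 6163 genes higher and 1473 lower there (7636 in all; 680 and 2098 without it), with 16 members higher and a member median of 0.61. Between MYC TAMs and MTMs it called 3919 higher and 643 lower (4562 in all; 116 and 668 without it), with 7 members higher, and in the interaction 138 (56 higher, 82 lower; 42 and 174 without it). Quantile normalisation called 1107 higher and 1553 lower between MYC and control TAMs, with 12 members higher and 1 lower, and 171 and 400 between MYC TAMs and MTMs, with 0 members lower; in controls 1 member, Naaa, was lower.

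With the compared groups alone, 196 genes passed between TAMs and MTMs in controls (1 member lower, Hgsnat, with adjusted p = 0.0354, while Naaa and Scpep1 did not pass), 90 in MYC mice (0 lower), 1547 between genotypes in TAMs (7 members higher, 1 lower) and 0 in MTMs (by limma; 2513 at an unadjusted p below 0.05), where Gla was thus not called. The epithelial covariate gave 1380 in TAMs (3 members higher, 4 lower), 2 members lower between MYC TAMs and MTMs, and 85 in the interaction. Without both libraries of mouse 4 the counts were 264 in controls (1 member lower), 200 in MYC mice (0 lower), 1647 between genotypes in TAMs (7 higher, 1 lower), 0 members higher in MTMs, and 54 in the interaction. Leaving out genes with a mean below 1, the interaction gave 327 with 1 member higher, and 1 member was higher and 2 lower between MYC TAMs and MTMs. Without the variance trend 1 member was higher in the interaction and 2 were lower between MYC TAMs and MTMs.

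Leaving out 1 library at a time gave 214 to 537 genes between TAMs and MTMs in controls (1 to 3 members lower) and 163 to 1031 in MYC mice (0 to 2 higher, 0 to 4 lower). Between genotypes it gave 1734 to 2996 in TAMs (6 to 14 higher, 1 to 4 lower) and 23 to 128 in MTMs (0 to 1 higher). The interaction count was 21 to 301, with 0 to 2 members lower.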
